A study of Rattus norvegicus with 24 samples.

Results

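Mitotic kinases, spindle proteins and kinetochore proteins are described here through 52 genes of the cell division machinery, chosen by name for what their products do in mitosis and grouped by role. The choice was made with earlier results of these data known, so the counts of these genes are a description. A row of the deposited gene count table was found for 51 of them, out of 34523 genes in the table, and all 51 passed the filter on low counts. Ccnb2, a B-type cyclin, is not analysed here. The cells were the rat line PMVEC (pulmonary microvascular endothelial cells), either wild type (WT) or knocked out for Pfkfb3 (KO), the gene of an enzyme that sets the level of an activator of glycolysis. Both genotypes were kept for 24 h in either normoxia or hypoxia, and the sugar was glucose or fructose, each at 25 mM, which gave 8 groups of 3 libraries: WT normoxia glucose, WT normoxia fructose, WT hypoxia glucose, WT hypoxia fructose and the matching 4 KO groups. The oxygen level is not in the labels, nor is which part of Pfkfb3 was edited, whether the KO cells were 1 clone, or whether the samples of a group were separate cultures, so the p-values rest on the spread of these samples alone, and that spread may be technical. No group had both sugars or neither, so an effect of fructose and an effect of the absence of glucose cannot be told apart.

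Mitosis begins when cyclin-dependent kinase 1 binds its cyclins and is freed from inhibition by phosphatases of the Cdc25 family. Polo-like and Aurora kinases then build the spindle, kinesin motors move its microtubules, and the kinetochore joins each chromosome to them. The spindle checkpoint holds back the anaphase-promoting complex until all kinetochores are attached, after which securin and the cyclins are destroyed, sister chromatids part and the contractile ring divides the cell. Transcripts of most of these genes rise together late in the cell cycle, and the cell cycle genes homology region (CHR) and the CCAAT box are promoter elements known to take part in that timing. The CHR is bound by complexes built on MuvB proteins, which repress these genes in resting cells and, with the forkhead factor Foxm1, activate them before mitosis. In a whole culture, a smaller share of dividing cells and less RNA of these genes per dividing cell cannot be told apart.

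RefSeq promoters on the GRCr8 rat assembly, from 250 bases before to 50 bases after the annotated start, could be matched to 42 of the 51 genes, and 10 are shown to let the 2 elements be seen. They belong to Cdk1, Plk1 and Cdc20 as core regulators, to Spc25, Kif23 and Nusap1 as the genes whose response to fructose differed most between the genotypes in normoxia, to Pttg1, Top2a and Mki67 as widely used reporters of dividing cells, and to Cdc25b as the one gene that ran the other way. Each line gives 120 bases before and 30 bases from the start, 5' to 3' on the gene's strand, with the CHR-like hexamers TTTGAA and TTCGAA and the pentamer CCAAT in capitals on either strand, so that TTCAAA and ATTGG in capitals are the same motifs read on the other strand.
Cdk1: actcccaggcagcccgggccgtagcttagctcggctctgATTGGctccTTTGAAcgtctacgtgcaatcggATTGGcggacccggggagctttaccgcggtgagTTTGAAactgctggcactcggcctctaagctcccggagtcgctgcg
Plk1: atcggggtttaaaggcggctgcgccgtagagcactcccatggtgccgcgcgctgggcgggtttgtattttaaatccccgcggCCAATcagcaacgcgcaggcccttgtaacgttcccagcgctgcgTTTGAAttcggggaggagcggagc
Cdc20: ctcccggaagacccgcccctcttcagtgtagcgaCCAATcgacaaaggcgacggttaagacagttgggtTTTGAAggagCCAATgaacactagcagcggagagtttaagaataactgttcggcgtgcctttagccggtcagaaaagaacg
Spc25: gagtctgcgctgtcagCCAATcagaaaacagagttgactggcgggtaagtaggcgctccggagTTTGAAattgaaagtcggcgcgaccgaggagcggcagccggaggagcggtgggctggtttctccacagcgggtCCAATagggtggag
Kif23: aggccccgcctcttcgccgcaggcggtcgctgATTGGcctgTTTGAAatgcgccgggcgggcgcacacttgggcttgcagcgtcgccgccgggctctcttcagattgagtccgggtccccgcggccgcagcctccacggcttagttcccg
Nusap1: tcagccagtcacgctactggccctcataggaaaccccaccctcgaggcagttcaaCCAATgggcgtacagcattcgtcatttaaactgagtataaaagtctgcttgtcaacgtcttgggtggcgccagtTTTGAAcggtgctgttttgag
Top2a: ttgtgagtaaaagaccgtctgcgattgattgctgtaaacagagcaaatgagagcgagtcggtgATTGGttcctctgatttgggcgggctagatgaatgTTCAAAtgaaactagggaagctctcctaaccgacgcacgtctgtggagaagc
Mki67: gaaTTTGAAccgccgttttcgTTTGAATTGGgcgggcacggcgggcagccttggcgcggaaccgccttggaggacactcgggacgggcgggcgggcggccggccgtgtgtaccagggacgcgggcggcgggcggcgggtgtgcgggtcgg
Pttg1: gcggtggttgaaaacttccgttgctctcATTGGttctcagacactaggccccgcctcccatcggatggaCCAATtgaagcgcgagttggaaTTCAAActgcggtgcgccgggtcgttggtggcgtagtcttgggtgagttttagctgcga
Cdc25b: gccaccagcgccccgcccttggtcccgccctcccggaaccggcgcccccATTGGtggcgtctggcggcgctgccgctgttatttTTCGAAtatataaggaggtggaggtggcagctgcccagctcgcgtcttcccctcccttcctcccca

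The windows are Cdk1 chr20:19265173-19265322 (plus strand), Plk1 chr1:186147538-186147687 (plus strand), Cdc20 chr5:137255770-137255919 (minus strand), Spc25 chr3:74396689-74396838 (minus strand), Kif23 chr8:71320555-71320704 (minus strand), Nusap1 chr3:127057175-127057324 (plus strand), Top2a chr10:84473064-84473213 (minus strand), Mki67 chr1:199952564-199952713 (minus strand), Pttg1 chr10:28406297-28406446 (minus strand) and Cdc25b chr3:138860053-138860202 (plus strand). TTTGAA, searched on both strands over the 300 bases, was found in 29 of the 42 promoters (69.0%), against 18.3% of all 33469 promoters in the reference. TTCGAA, which reads the same on both strands, was found in 5 of the 42 (11.9%), against 1.69% of all. CCAAT was found in 31 of the 42 (73.8%), against 37.5%, and a CHR-like hexamer together with CCAAT in 25 (59.5%), against 7.95%. All the promoters shown hold both, so they do not stand for the 42. That of Ccnb1, for one, holds CCAAT without a CHR-like hexamer. Most TTTGAA matches lay close to the start: 28 of the 42 promoters (66.7%) had one between 100 bases before and 50 after it, against 8.21% of all. In Mki67 the second TTTGAA and the ATTGG share 1 base. The same search found a CHR-like hexamer in 25 of 42 promoters of other mitosis genes (59.5%), in 5 of 28 of DNA replication genes (17.9%) and in 1 of 12 of anaphase-promoting complex subunits (8.33%). A match is a run of letters, not a binding site.

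**Figure D1:**
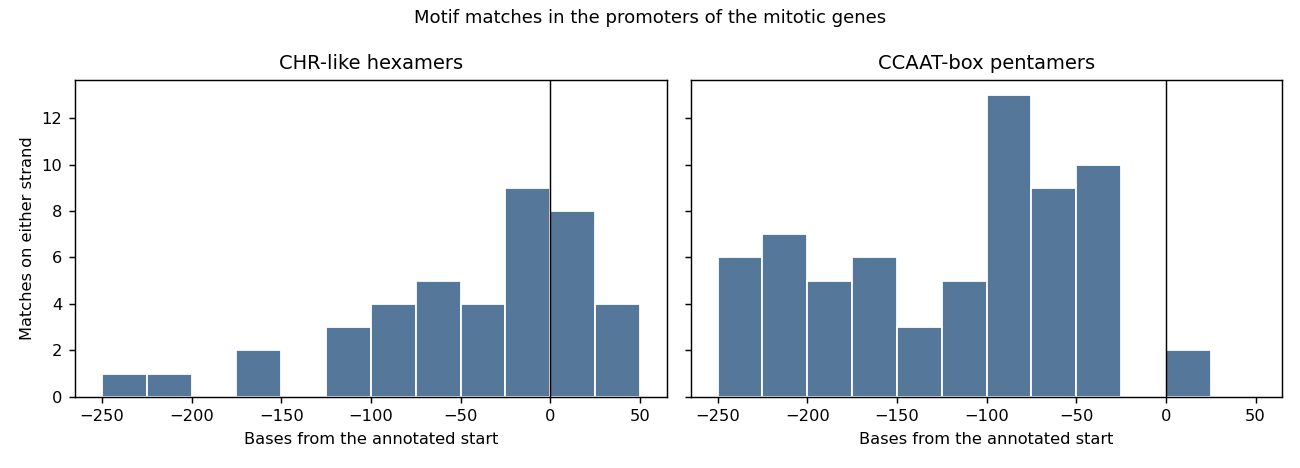
Positions of the motif matches in the 42 promoters of the mitotic genes, in bins of 25 bases (x, bases from the annotated start; y, matches on either strand), for the CHR-like hexamers (left) and the CCAAT pentamer (right). Of 41 hexamer matches, 36 are TTTGAA, and 31 of those 36 lie within 100 bases of the start. The fullest pentamer bins lie in the 100 bases before the start.

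Library totals were 14344010 to 23028807 counts, and the lowest count of any of the 51 genes in any library was 110, for Cenpk. Levels are given in CPM, the count per 1000000 of the library total scaled by TMM, so levels of different genes are compared only after division by gene length: on that scale Anln was highest at 115 CPM per kb, followed by Top2a at 94.5 and Cdk1 at 92.8, and Kif18a was lowest at 6.82. Differences are log2 changes from edgeR's quasi-likelihood test, with a standard error (SE) and a p-value adjusted by Benjamini-Hochberg over the 14770 genes tested, and a gene is said to have risen or fallen where the adjusted p is under 0.05. The targeted gene was still read in the KO libraries: Pfkfb3 stood at 37.1 to 40.7 CPM in KO normoxia glucose against 55.5 to 63.5 in WT, and at 31.4 to 38.1 in KO normoxia fructose against 108 to 130 in WT. In hypoxia it stood at 43.3 to 47.3 against 62.0 to 74.8 with glucose and at 54.3 to 63.3 against 157 to 174 with fructose, so KO hypoxia fructose overlapped WT normoxia glucose. Libraries numbered 3 were the lowest of their group for most of the 51 genes in 6 groups and not in the 2 KO fructose groups: they held the lowest level of 46, 44, 38 and 39 of the 51 genes in WT normoxia glucose, WT normoxia fructose, WT hypoxia glucose and WT hypoxia fructose, and of 43, 24, 34 and 20 in the matching KO groups. In KO normoxia fructose number 1 was lowest for 22, and in KO hypoxia fructose number 3 was also highest for 22. Counts are therefore also given without them where they differ by over 1.5 times.

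The label of the line was checked against marker genes. Of 15 endothelial markers with a row, 7 were below 1 CPM in every library. Among them Cdh5 reached no more than 0.513 and Kdr no more than 0.538, with Emcn, Robo4, Sox17 and Sox18 at 0. Flt1 reached 207 CPM and Vwf 64.0. The sum over the 15 was 64.7 to 132 CPM over the WT libraries and 236 to 329 over the KO libraries. The 15 did not move alike. Flt1, Vwf and Icam2 had means of 67.8, 9.75 and 6.27 CPM over the WT libraries and 147, 57.3 and 42.8 over the KO libraries. Tek went the other way, at 3.87 and 0.843. The fibroblast markers Col1a1 and Col1a2 were high, with Col1a1 between 1790 and 17000 CPM, although Dcn, Lum, Thy1, Pdgfra and Tcf21 were below 1 CPM. Summed over 8 fibroblast markers, the level was 14300 to 17900 CPM in WT normoxia glucose and 8750 to 10000 in WT normoxia fructose, 12800 to 13800 and 5960 to 6560 in the hypoxic pair, and 2380 to 4440 over all KO libraries. Summed over 8 smooth muscle and pericyte markers, it was 77.6 to 83.8 and 206 to 293 CPM in the same normoxic WT pair, 94.3 to 107 and 325 to 334 in the hypoxic WT pair, and 169 to 303 over the KO libraries; Rgs5 was at 0 and Cnn1 no higher than 0.159. Its members ran in opposite directions. Acta2 had a mean of 95.9 CPM over the WT libraries and 7.76 over the KO libraries, while Des had 48.4 and 154. Within WT normoxia Acta2 was at 17.7 to 25.2 CPM with glucose and 124 to 187 with fructose. The 10 epithelial markers summed to 668 to 1150 CPM over the WT libraries and 1540 to 2920 over the KO libraries, nearly all of it Krt8, with Sftpb, Nkx2-1 and Cldn4 at 0. The 7 leukocyte markers summed to 2.50 to 5.74 CPM over the WT libraries, 3.02 to 5.51 in KO normoxia and 12 to 19.7 in KO hypoxia, with Ptprc no higher than 0.232. Csf1r alone gave 10.9 to 18.1 CPM in KO hypoxia. These lists move with sugar or genotype beside the mitotic genes, and their part in the results was not tested.

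Added over the 51 genes, mitotic transcripts were lower with fructose in WT cells in both oxygen conditions, while in KO cells the sugars overlapped in normoxia and did not in hypoxia. The sum was 6110 to 7480 CPM in WT normoxia glucose (6900 ± 706, SD, n = 3) and 3120 to 4010 in WT normoxia fructose (3590 ± 449). In hypoxia the WT sums were 6060 to 6740 with glucose (6500 ± 380) and 3780 to 4120 with fructose (3980 ± 181). The WT fructose libraries therefore lay below every other library of the study. KO sums were 6190 to 7240 in normoxia with glucose (6850 ± 580), 6380 to 6760 in normoxia with fructose (6520 ± 208), 6010 to 6540 in hypoxia with glucose (6290 ± 269) and 5550 to 5600 in hypoxia with fructose (5580 ± 26.4). Only the KO hypoxia fructose libraries lay below all the other KO libraries, and they overlapped no WT fructose library. The sum is weighted towards abundant genes such as Top2a and Anln, so the counts and medians below are over genes.

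**Figure D2:**
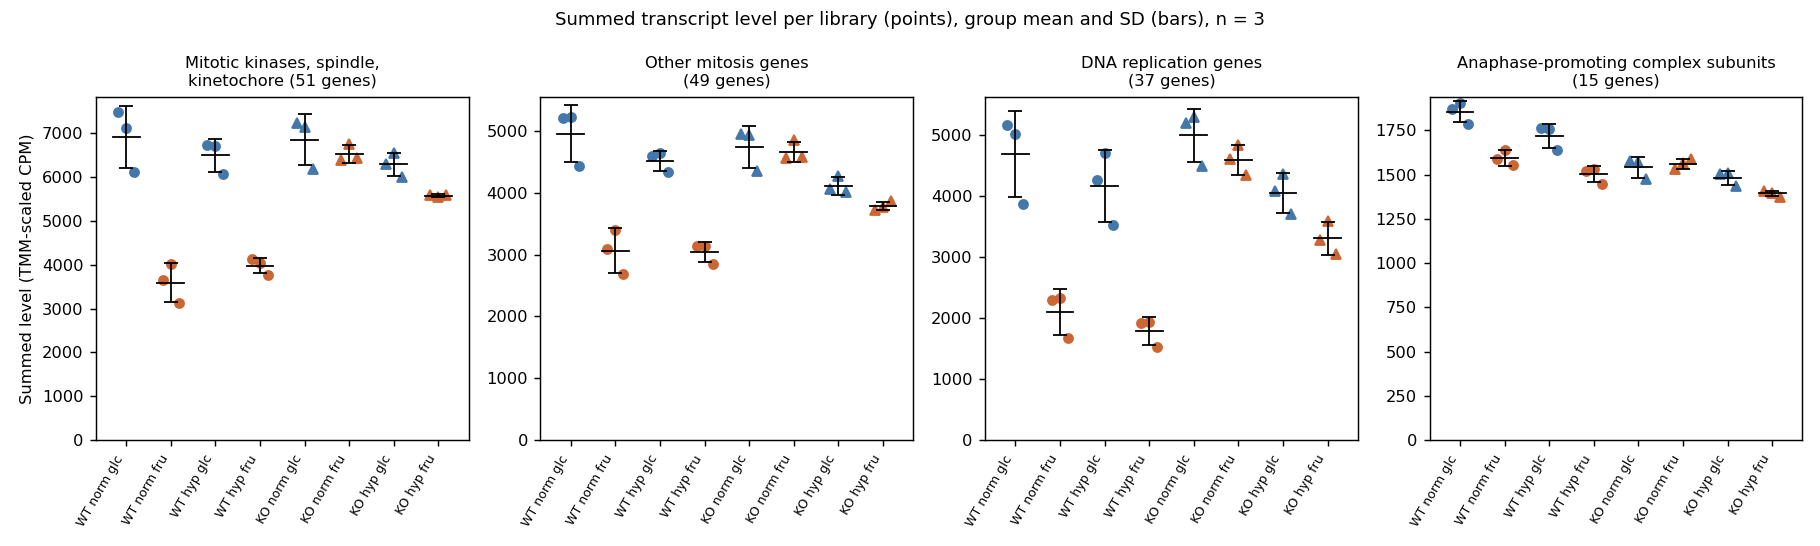
Summed TMM-scaled CPM (y) of the mitotic genes and of 3 other cell cycle lists in each library (points; circles WT, triangles KO; blue glucose, orange fructose), with the group mean and SD (bars, n = 3), over the 8 groups (x). The WT fructose libraries sit at 3120 to 4120 CPM for the mitotic genes, below all KO libraries, and the anaphase-promoting complex subunits lie between 1380 and 1900 CPM.

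Fructose against glucose in WT cells was the comparison in which nearly the whole list fell. In normoxia 50 of the 51 genes fell and 1 rose, with a median log2 change of -1.0, where over all genes tested 17.9% fell and 19.9% rose and the median was 0.02. In hypoxia 46 fell and 1 rose, with a median of -0.87, where 20.9% fell and 24.6% rose over all genes. The 46 were all among the 50, an overlap nearly fixed in advance since 50 of the 51 fell in normoxia. The middle 80% of the genes lay between -1.29 and -0.55 in normoxia and between -1.16 and -0.32 in hypoxia, and the median gene in hypoxia was left at 54.7% of its glucose level. In KO cells the same comparison gave no call in either direction in normoxia (edgeR, and also DESeq2; 1 gene had an unadjusted p under 0.05), where 1.14% of all genes rose and 0.65% fell, with a median of -0.06. In KO hypoxia Pttg1 alone fell, where 2.69% of all genes rose and 2.73% fell, with a median of -0.17. There 47 of the 51 values were negative, and 18 genes had an unadjusted p under 0.05 (edgeR). The fructose group lay below the glucose group without overlap for 23 genes, against 11.9% of all genes. In that comparison 11 genes fell without the libraries numbered 3, and 2 without KO hypoxia fructose 3 or WT normoxia fructose 2.

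Regulators of mitotic entry fell in WT cells with fructose except for Cdc25b: 5 of 6 fell and 1 rose in each oxygen condition. Cdk1, the kinase that drives entry into mitosis, was read at 183, 179 and 150 CPM in WT normoxia glucose and 93.1, 95 and 64.2 in WT normoxia fructose. In WT hypoxia it was at 157, 168 and 136 CPM with glucose and 84.9, 85.9 and 81.9 with fructose. No fructose library reached the lowest glucose library: Cdk1 fell by 1.02 on the log2 scale (SE 0.113, adjusted p 1.14e-07) in normoxia and fell by 0.87 on the log2 scale (SE 0.112, adjusted p 8.01e-07) in hypoxia. KO cells held Cdk1 at 161, 160 and 138 CPM with glucose and 144, 145 and 142 with fructose in normoxia. Under hypoxia the KO values were 141, 145 and 123 with glucose and 121, 127 and 116 with fructose. In both KO pairs the groups overlapped, with log2 changes of -0.09 (SE 0.111, adjusted p 0.847) and -0.17 (SE 0.111, adjusted p 0.467).

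Cyclin B1, the main partner of Cdk1, followed it. Ccnb1 was at 139, 131 and 117 CPM in WT normoxia glucose against 79.7, 84.1 and 62.9 with fructose, and at 122, 119 and 105 against 81.4, 77.7 and 73.2 in WT hypoxia. It fell by 0.77 on the log2 scale (SE 0.101, adjusted p 1.2e-06) in normoxia and fell by 0.58 on the log2 scale (SE 0.1, adjusted p 4.28e-05) in hypoxia. The KO libraries gave 154, 153 and 126 CPM with glucose and 138, 150 and 153 with fructose in normoxia, and 142, 135 and 122 with glucose and 122, 112 and 107 with fructose in hypoxia. Here too the 2 sugars overlapped in both oxygen conditions. Cyclin A2, which serves S phase and mitotic entry, fell further in WT cells, by 1.19 and 1.13 on the log2 scale, and Cdc25c, a phosphatase that activates Cdk1, fell less, by 0.53 and 0.49.

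Foxm1, the forkhead factor that drives late cell cycle genes, fell with fructose in WT cells and passed no test between the genotypes on fructose. Its WT values were 63.8, 70.5 and 53.7 CPM with glucose and 39.5, 46.8 and 33.7 with fructose in normoxia, and 56.1, 66.4 and 56.5 with glucose and 45.7, 45.1 and 45.3 with fructose in hypoxia. It fell by 0.65 on the log2 scale (SE 0.102, adjusted p 1.69e-05) and fell by 0.39 on the log2 scale (SE 0.101, adjusted p 0.00243), and the groups did not overlap. KO values were 51.4, 46.3 and 48.7 CPM with glucose and 44.3, 46.2 and 42.2 with fructose in normoxia, and 40.1, 44.9 and 43.8 with glucose and 40.3, 42.5 and 40.7 with fructose in hypoxia. On glucose Foxm1 was therefore lower in KO than in WT, at -0.36 (SE 0.101, adjusted p 0.00518) in normoxia and -0.47 (SE 0.101, adjusted p 0.000415) in hypoxia. On fructose its KO against WT change was 0.14 (SE 0.103, adjusted p 0.25) in normoxia and -0.14 (SE 0.102, adjusted p 0.263) in hypoxia.

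Cdc25b, another Cdk1-activating phosphatase, ran against the rest. WT libraries held 84.1, 102 and 87.8 CPM with glucose and 115, 118 and 95 with fructose in normoxia, with overlap, and 87.2, 85.4 and 90.3 with glucose and 107, 108 and 121 with fructose in hypoxia, without overlap. Cdc25b rose by 0.26 on the log2 scale (SE 0.0786, adjusted p 0.011) in normoxia and rose by 0.35 on the log2 scale (SE 0.0786, adjusted p 0.000673) in hypoxia. The normoxic call was lost without WT normoxia fructose 1 or 2 or WT normoxia glucose 1, with an adjusted p of up to 0.0852, and both calls were lost with the library total alone as scaling. KO libraries held 63.6, 68.7 and 64.5 CPM with glucose and 72.1, 71.9 and 74.1 with fructose in normoxia, and 56.3, 56.2 and 55.3 with glucose and 53.7, 57.7 and 55.7 with fructose in hypoxia. No KO library reached the lowest of the 12 WT libraries, and Cdc25b was lower in KO cells in every medium, by 0.48 and 0.65 on the log2 scale with glucose and by 0.59 and 1.01 with fructose in normoxia and hypoxia. Genes nearest to Cdc25b on chromosome 3 also had negative median changes for KO against WT. These medians were -0.38 and -0.47 with glucose and -0.54 and -0.45 with fructose, in normoxia and hypoxia. With the median of the nearest genes taken out, no mitotic gene, Cdc25b included, was called lower in KO with fructose in normoxia. In hypoxia with fructose 1 was, and it was not Cenpf, the other gene called lower there in the main fit. The part of chromosome position in the Cdc25b difference was not tested further. The Cdc25b promoter, shown above, has the TTCGAA hexamer and an inverted CCAAT box.

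All 5 mitotic kinases of the second group fell in WT cells with fructose in normoxia and in hypoxia, with median log2 changes of -0.99 and -0.73. Bub1, a checkpoint kinase of the kinetochore, had 234, 257 and 202 CPM in WT normoxia glucose and 143, 174 and 130 with fructose. WT hypoxia gave 200, 209 and 205 with glucose and 162, 170 and 162 with fructose. Its change was -0.63 (SE 0.0923, adjusted p 5.9e-06) in normoxia and -0.32 (SE 0.0919, adjusted p 0.00665) in hypoxia. In KO cells Bub1 was at 207, 198 and 183 CPM with glucose and 208, 220 and 208 with fructose in normoxia, where the groups did not overlap and the change was 0.11 (SE 0.0918, adjusted p 0.704), and at 172, 176 and 175 with glucose and 156, 155 and 183 with fructose in hypoxia. Polo-like kinase 1 drives spindle assembly and mitotic exit: Plk1 fell by 1.29 on the log2 scale (SE 0.125, adjusted p 2.42e-08) in WT normoxia and fell by 1.0 on the log2 scale (SE 0.124, adjusted p 5.61e-07) in WT hypoxia. Ttk, the checkpoint kinase Mps1, fell by 0.99 and 0.91 on the log2 scale.

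The fall of Aurora A differed between the oxygen conditions. Aurora A, the kinase of centrosomes and spindle poles, had 104, 102 and 83.3 CPM in WT normoxia glucose and 56.5, 56.9 and 48.8 with fructose, and 84.4, 87 and 69.5 with glucose and 61.7, 62.3 and 62.7 with fructose in WT hypoxia. Aurka fell by 0.84 on the log2 scale (SE 0.0848, adjusted p 2.69e-08) in normoxia and fell by 0.37 on the log2 scale (SE 0.0843, adjusted p 0.000907) in hypoxia. The difference between those falls, tested as the sugar by oxygen term in WT cells, was 0.47 (SE 0.119, adjusted p 0.028); it was the single call of that term among the 51 genes, where 2.13% of all genes were positive and 1.14% negative. The call was lost when any of 7 WT libraries was left out, with an adjusted p of up to 0.0907. Aurora B, the kinase of the chromosomal passenger complex, fell by 1.12 and 0.73 on the log2 scale, and its sugar by oxygen term was 0.40 (SE 0.128, adjusted p 0.09).

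Checkpoint and mitotic exit genes fell in WT cells in 7 of 7 cases in normoxia and 6 of 7 in hypoxia. Cdc20, the activator of the anaphase-promoting complex and the target of the checkpoint, was at 202, 192 and 160 CPM in WT normoxia glucose and 108, 102 and 85.4 with fructose. In WT hypoxia it was at 145, 153 and 120 with glucose and 99.6, 94.9 and 90 with fructose. Its change was -0.91 (SE 0.103, adjusted p 1.5e-07) in normoxia and -0.55 (SE 0.103, adjusted p 9.06e-05) in hypoxia. KO libraries held 215, 219 and 192 CPM with glucose and 201, 211 and 196 with fructose in normoxia, which overlapped, and 161, 168 and 155 with glucose and 147, 150 and 119 with fructose in hypoxia, which did not. The hypoxic KO change was -0.22 (SE 0.102, adjusted p 0.254).

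Bub3, the partner that brings Bub1 and BubR1 to kinetochores, had the smallest fall in WT normoxia. It was at 95.3, 98.6 and 77.5 CPM in WT normoxia glucose and 72.4, 72.6 and 67.8 with fructose, and at 85.3, 88.6 and 76.2 with glucose and 79.3, 74.4 and 68.7 with fructose in WT hypoxia. It fell by 0.35 on the log2 scale (SE 0.0995, adjusted p 0.00677) in normoxia, and its hypoxic change of -0.17 (SE 0.0993, adjusted p 0.173) came with overlapping groups. KO libraries held 103, 97.2 and 86.9 CPM with glucose and 88.7, 94.1 and 96.6 with fructose in normoxia, and 83.5, 83.5 and 82.6 with glucose and 85.4, 82.4 and 63.2 with fructose in hypoxia. Securin, the inhibitor of separase, was among the genes that fell most: Pttg1 had 77.5, 77.2 and 73.7 CPM in WT normoxia glucose against 26.8, 32.1 and 26.5 with fructose, and 67.3, 64.2 and 63.7 against 26.5, 21.1 and 28.5 in WT hypoxia. Pttg1 fell by 1.42 on the log2 scale (SE 0.0958, adjusted p 4.08e-11) in normoxia and fell by 1.36 on the log2 scale (SE 0.0963, adjusted p 4e-11) in hypoxia. It was also the single gene to fall with fructose in KO hypoxia, from 49.5, 50.8 and 47.8 to 35.1, 35.3 and 38.1 CPM, at -0.45 (SE 0.0943, adjusted p 0.00403). Espl1, the separase it inhibits, fell by 1.20 and 1.41 in WT cells, BubR1 (Bub1b) by 1.14 and 0.90, Mad2 (Mad2l1) by 0.96 and 0.89, and Ube2c, the ubiquitin-conjugating enzyme of the anaphase-promoting complex, by 0.86 and 0.33. The hypoxic Ube2c call was lost without WT hypoxia glucose 1 or 2, with an adjusted p of up to 0.098.

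All 10 kinesins fell in WT cells in both oxygen conditions, with medians of -1.06 and -0.93. Kif11, the motor Eg5 that pushes spindle poles apart, was at 305, 266 and 236 CPM in WT normoxia glucose and 126, 137 and 109 with fructose. WT hypoxia gave 278, 253 and 246 with glucose and 148, 142 and 129 with fructose. With no overlap, Kif11 fell by 1.12 on the log2 scale (SE 0.0998, adjusted p 3.62e-09) in normoxia and fell by 0.89 on the log2 scale (SE 0.0993, adjusted p 7.18e-08) in hypoxia. KO libraries held 350, 346 and 273 CPM with glucose and 277, 301 and 296 with fructose in normoxia, and 284, 307 and 276 with glucose and 254, 249 and 264 with fructose in hypoxia. The KO changes were -0.15 (SE 0.0979, adjusted p 0.613) with overlap and -0.18 (SE 0.0979, adjusted p 0.362) without.

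Kif23, a motor subunit of centralspindlin, showed the steepest fall of the kinesins in WT normoxia. It was at 131, 121 and 108 CPM with glucose and 45.3, 50.9 and 47.8 with fructose there, and at 125, 125 and 109 with glucose and 53.5, 54 and 49.1 with fructose in WT hypoxia. Kif23 fell by 1.32 on the log2 scale (SE 0.0866, adjusted p 2.69e-11) and fell by 1.20 on the log2 scale (SE 0.086, adjusted p 5.11e-11). In KO cells it was at 132, 117 and 105 CPM with glucose and 110, 119 and 115 with fructose in normoxia, and at 119, 121 and 112 with glucose and 108, 99.9 and 112 with fructose in hypoxia, with overlap in both. Of the other kinesins, Kif15, which acts beside Eg5, fell by 1.29 and 1.29 on the log2 scale. Kif14 and Kif20b, motors of cytokinesis, fell by 1.12 and 1.06 in normoxia and by 0.95 and 0.92 in hypoxia. The microtubule depolymerase MCAK (Kif2c) fell by 1.06 and 0.98, Kif22, which binds chromosome arms, by 1.0 and 0.81, and the central spindle motors Kif20a and Kif4a by 0.99 and 0.85 in normoxia and 1.10 and 0.64 in hypoxia. Kif18a, which limits kinetochore fibre length and was the least read kinesin per length, fell by 0.50 and 0.34. The hypoxic call was lost when any of 4 libraries was left out, with an adjusted p of up to 0.228.

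All 12 kinetochore genes fell in WT normoxia and 10 of 12 in WT hypoxia. Cenpf, a large outer kinetochore protein, was at 200, 162 and 156 CPM in WT normoxia glucose and 105, 121 and 102 with fructose. In WT hypoxia it was at 209, 182 and 203 with glucose and 172, 174 and 160 with fructose. Cenpf fell by 0.65 on the log2 scale (SE 0.0978, adjusted p 8.05e-06) in normoxia, and its hypoxic change was -0.23 (SE 0.0968, adjusted p 0.0539). KO libraries held 161, 141 and 123 CPM with glucose and 123, 137 and 128 with fructose in normoxia, and 137, 150 and 143 with glucose and 122, 112 and 130 with fructose in hypoxia. The 4 subunits of the Ndc80 complex, which binds microtubule ends, all fell by at least the median: Ndc80 by 1.13 and 1.12, Nuf2 by 1.13 and 1.16, Spc24 by 1.02 and 1.05, and Spc25 by 1.32 and 1.32 on the log2 scale in normoxia and hypoxia.

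Spc25 had the largest difference in fructose response between the genotypes in both oxygen conditions. It stood at 49.4, 54.9 and 46.4 CPM in WT normoxia glucose and 19.6, 23.5 and 17.3 with fructose, and at 43, 45.1 and 37.9 with glucose and 17.2, 19.4 and 13.7 with fructose in WT hypoxia. In KO cells it stood at 43, 41.4 and 35.7 CPM with glucose and 39.5, 44.9 and 43.3 with fructose in normoxia and at 34.6, 36.7 and 31 with glucose and 32.4, 33.1 and 30.2 with fructose in hypoxia. The WT sugars did not overlap and the KO sugars did. Among the other kinetochore genes, Cenpe, a kinetochore motor, fell by 1.09 and 1.03 in WT cells, and Ska1, of the Ska complex on kinetochore microtubules, by 0.82 and 1.0. The centromeric histone Cenpa fell by 0.79 and 0.43. Of the inner kinetochore subunits, Cenph fell by 1.02 and 0.87, Cenpm by 0.73 and 0.85 and Cenpk by 0.66 and 0.59. Cenpn, which binds Cenpa nucleosomes, fell by 0.50 in normoxia but was at 0.03 (SE 0.115, adjusted p 0.842) in hypoxia. The annotated span of Cenpn overlaps Cmc2 and that of Cenpk overlaps Ppwd1 on the other strand, and whether the counting used strand is not given in the sources used here.

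The 9 passenger, spindle and cytokinesis genes all fell in WT normoxia, and 8 fell in WT hypoxia. Anillin, a scaffold of the contractile ring, was the exception: Anln was at 356, 334 and 260 CPM in WT normoxia glucose and 225, 253 and 172 with fructose, but at 391, 393 and 363 with glucose and 416, 416 and 372 with fructose in WT hypoxia. It fell by 0.54 on the log2 scale (SE 0.123, adjusted p 0.00108) in normoxia and was at 0.07 (SE 0.122, adjusted p 0.684) in hypoxia. KO libraries held 458, 425 and 342 CPM with glucose and 374, 420 and 379 with fructose in normoxia, and 575, 601 and 526 with glucose and 531, 479 and 525 with fructose in hypoxia. Nusap1, a microtubule-binding spindle protein, was at 118, 122 and 123 CPM in WT normoxia glucose and 46.6, 52.9 and 48.5 with fructose, and at 125, 115 and 121 with glucose and 55.6, 55.6 and 63.5 with fructose in WT hypoxia. It fell by 1.29 on the log2 scale (SE 0.0806, adjusted p 1.17e-11) and fell by 1.05 on the log2 scale (SE 0.0798, adjusted p 1.4e-10), and no fructose library overlapped a glucose library. In KO cells Nusap1 was at 87.2, 85 and 79 CPM with glucose and 82.8, 81.4 and 90.1 with fructose in normoxia, and at 83.5, 83.9 and 87.2 with glucose and 68.1, 71.7 and 86 with fructose in hypoxia.

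The passenger complex also fell in WT cells: its scaffold Incenp by 1.14 and 1.06 on the log2 scale in normoxia and hypoxia, borealin (Cdca8) by 1.07 and 0.96, and survivin (Birc5) by 1.01 and 0.80. Ect2, the exchange factor that activates RhoA at the cleavage site, fell by 1.22 and 0.90, and its centralspindlin partner Racgap1 by 0.93 and 0.80. Tpx2, the spindle assembly factor that activates Aurora A, fell by 1.0 and 0.92, and Prc1, which bundles microtubules of the central spindle, by 0.95 and 0.66.

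Both chromosome structure genes fell in WT cells. Top2a, DNA topoisomerase II alpha, was at 768, 642 and 609 CPM in WT normoxia glucose and 309, 372 and 272 with fructose, and at 653, 606 and 617 with glucose and 352, 357 and 323 with fructose in WT hypoxia. It fell by 1.08 on the log2 scale (SE 0.0984, adjusted p 4.87e-09) and fell by 0.86 on the log2 scale (SE 0.098, adjusted p 9.67e-08). KO libraries held 676, 669 and 572 CPM with glucose and 537, 614 and 594 with fructose in normoxia, and 539, 585 and 544 with glucose and 472, 477 and 511 with fructose in hypoxia. The proliferation marker Ki-67 also fell: Mki67 was at 334, 264 and 226 CPM in WT normoxia glucose and 142, 155 and 121 with fructose, and at 257, 244 and 243 with glucose and 161, 162 and 129 with fructose in WT hypoxia. Mki67 fell by 0.98 on the log2 scale (SE 0.132, adjusted p 3.14e-06) and fell by 0.72 on the log2 scale (SE 0.131, adjusted p 9.9e-05). In KO cells it was at 345, 318 and 250 CPM with glucose and 260, 303 and 288 with fructose in normoxia and at 254, 280 and 224 with glucose and 215, 230 and 224 with fructose in hypoxia, with overlap in both.

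**Figure D3:**
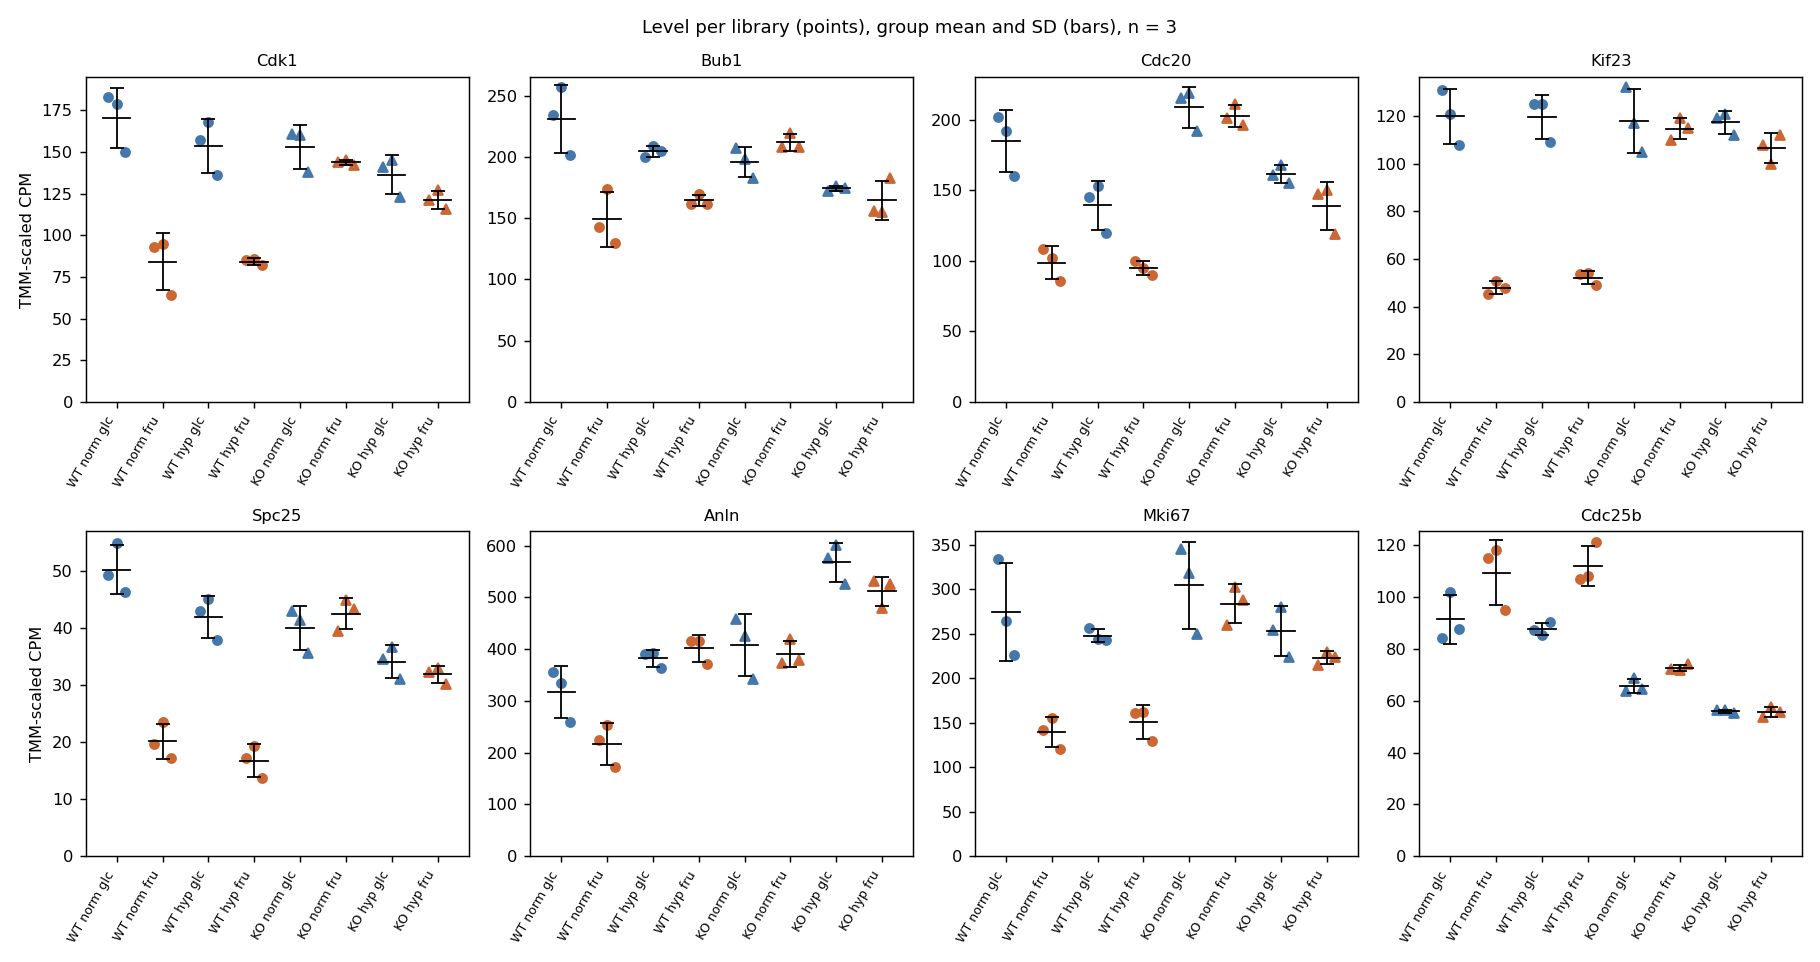
TMM-scaled CPM (y) of 8 mitotic genes in each library (points; circles WT, triangles KO; blue glucose, orange fructose), with group mean and SD (bars, n = 3), over the 8 groups (x). The WT fructose groups stand lowest for Cdk1, Cdc20, Kif23, Mki67 and Spc25, the last at 13.7 to 23.5 CPM; Anln is highest in the KO hypoxia groups and Cdc25b is lower in all KO groups.

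Whether the response to fructose differed between the genotypes was tested directly, as the fructose change in KO minus the fructose change in WT. In normoxia this difference was positive for 48 of the 51 genes and negative for none, with a median of 0.93, where 9.15% of all genes were positive and 9.99% negative. In hypoxia it was positive for 38 and negative for 1, with a median of 0.69, where 10.7% of all genes were positive and 14.9% negative. The 38 were all among the 48, an overlap nearly fixed in advance since 48 of the 51 passed in normoxia. The 2 tests share no library but come from 1 fit. The 3 most positive genes in normoxia were Spc25 at 1.41 (SE 0.167, adjusted p 1.83e-06), Nusap1 at 1.31 (SE 0.113, adjusted p 2.44e-08) and Kif23 at 1.28 (SE 0.12, adjusted p 7.09e-08). In hypoxia they were at 1.23, 0.87 and 1.06, each past the threshold. The 3 genes at the other end in normoxia did not pass: Cdc25b at -0.11 (SE 0.112, adjusted p 0.549), Bub3 at 0.31 (SE 0.14, adjusted p 0.125) and Anln at 0.48 (SE 0.173, adjusted p 0.0533). In hypoxia Cdc25b was the single negative call, at -0.36 (SE 0.112, adjusted p 0.0204), and lost it without KO hypoxia fructose 1 or WT hypoxia fructose 3, with an adjusted p of up to 0.0649.

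By role, in normoxia the difference was positive for 5 of 6 entry genes, 5 of 5 kinases, 6 of 7 checkpoint and exit genes, 10 of 10 kinesins, 12 of 12 kinetochore genes, 8 of 9 passenger, spindle and cytokinesis genes and 2 of 2 chromosome structure genes. In hypoxia the counts in the same order were 3, 3, 4, 9, 9, 8 and 2. Genes that passed in normoxia and not in hypoxia were Ccnb1 at 0.35 (SE 0.141, adjusted p 0.0717), Foxm1 at 0.34 (SE 0.144, adjusted p 0.0911), Aurka at 0.24 (SE 0.119, adjusted p 0.144), Bub1 at 0.23 (SE 0.13, adjusted p 0.204) and Cdc20 at 0.34 (SE 0.144, adjusted p 0.0928). The rest were Ube2c at 0.04, Kif18a at 0.34, Cenpa at 0.25, Cenpf at -0.01 and Cenpn at 0.11. The normoxic call of Kif18a was lost when any of 8 libraries was left out, with an adjusted p of up to 0.106, and that of Foxm1 without WT normoxia glucose 2, at 0.0551. Whether the difference itself changed between the oxygen conditions was not tested as a single term. Cdk1 stood at 0.93 (SE 0.158, adjusted p 0.000146) in normoxia and 0.70 (SE 0.158, adjusted p 0.00184) in hypoxia, and Mki67 at 0.88 (SE 0.184, adjusted p 0.0015) and 0.54 (SE 0.184, adjusted p 0.0351). The hypoxic Mki67 call was lost when any of 8 libraries was left out, with an adjusted p of up to 0.0986.

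**Figure D4:**
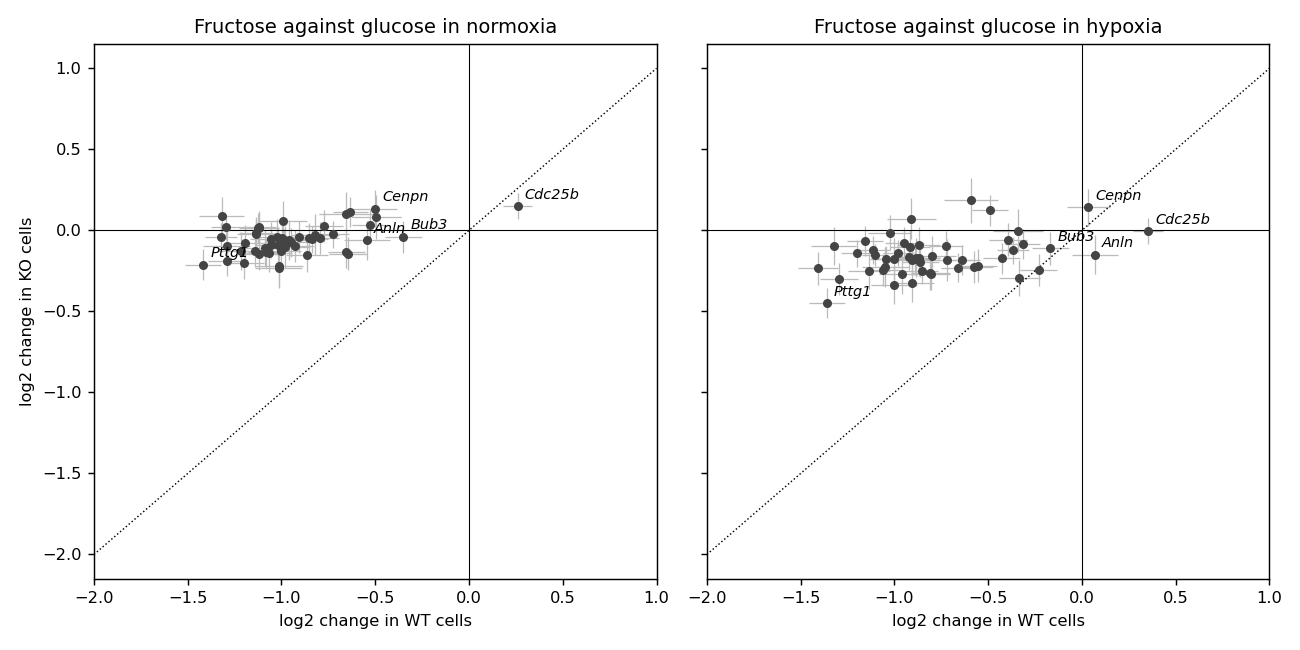
Fructose against glucose log2 change of each of the 51 mitotic genes in WT cells (x) and KO cells (y), in normoxia (left) and hypoxia (right), with standard errors (bars) and the line of equal change (dotted). Most genes lie near -1 on the WT axis and near 0 on the KO axis (medians -1.0 and -0.06 in normoxia), and Cdc25b is the gene to the right of 0 in both panels, at 0.26 and 0.35.

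KO against WT was compared in each medium; the fructose comparisons share their WT libraries with the WT fructose response above. With fructose 49 of the 51 genes were higher in KO in normoxia and 1 lower, with a median log2 change of 0.93, where 25.7% of all genes were higher and 28.0% lower. In hypoxia 42 were higher and 2 lower, with a median of 0.57, where 25.7% were higher and 28.8% lower. With glucose the genotypes split: 9 higher and 13 lower in normoxia, with a median of 0.04, where 22.7% of all genes were higher and 23.7% lower. In hypoxia with glucose 8 were higher and 15 lower, with a median of -0.07, where 24.3% were higher and 24.1% lower. These glucose counts lie near the share over all genes. Of the 13 genes lower in KO with glucose in normoxia, 13 were among the 15 lower in hypoxia, and 7 of the 9 and of the 8 higher genes were shared. Of the same 13, 11 were higher in KO with fructose in normoxia, an overlap nearly fixed in advance since 49 of the 51 were higher there.

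The 9 of 51 genes higher in KO cells with glucose in normoxia were from the kinetochore, the kinesins and the cytokinesis group. These groups hold most of the list, with 12, 10 and 9 genes. The count did not exceed the share over all genes, 22.7%, and whether these roles were favoured was not tested. Ndc80, the microtubule-binding subunit of its complex, had the largest change: 171, 160 and 153 CPM in KO against 102, 113 and 91.6 in WT in normoxia, and 146, 143 and 132 against 100, 107 and 99.6 in hypoxia. Ndc80 was at 0.65 (SE 0.0882, adjusted p 1.37e-06) and 0.46 (SE 0.0879, adjusted p 0.000131), with no overlap. Of the inner kinetochore subunits, Cenpk had 22.1, 23.9 and 20.6 CPM in KO against 14.4, 18 and 13.6 in WT, and Cenpn 102, 101 and 82.5 against 71.7, 81.4 and 60.2, both without overlap, with log2 changes of 0.54 and 0.42. In hypoxia Cenpk had 16.6, 16.6 and 16.4 against 11.3, 13.7 and 13.4 CPM and Cenpn 90.1, 93.1 and 81.7 against 69.5, 71.4 and 61.6. Cenpm had 61.9, 59.1 and 56 CPM in KO against 48.3, 55.3 and 46.5 in WT in normoxia, at 0.24 (SE 0.0834, adjusted p 0.0218). In hypoxia its change was 0.13 (SE 0.0836, adjusted p 0.223).

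Among the motors, Kif14 had 62.2, 69.4 and 54.4 CPM in KO against 56.3, 48.5 and 42.2 in WT in normoxia, with overlap, and 62.8, 66.7 and 58.3 against 48.9, 50.1 and 43.9 in hypoxia, without. Its changes were 0.34 (SE 0.101, adjusted p 0.00809) and 0.39 (SE 0.1, adjusted p 0.00221). Kif11, with the values above, was at 0.26 (SE 0.098, adjusted p 0.0299) in normoxia with overlap and at 0.16 (SE 0.0979, adjusted p 0.189) in hypoxia. Kif4a had 78.7, 79.4 and 75.9 CPM in KO against 70.1, 67.1 and 60.8 in WT in hypoxia, at 0.24 (SE 0.0931, adjusted p 0.0347). Of the cytokinesis genes, survivin (Birc5) had 91.2, 86.7 and 78.4 CPM in KO against 67.2, 67.7 and 57.6 in normoxia and 86.2, 94.1 and 75.9 against 76.1, 71.7 and 56.2 in hypoxia, the latter overlapping, at 0.41 and 0.33. Ect2 had 311, 313 and 247 against 266, 242 and 185 CPM in normoxia with overlap, and 265, 281 and 254 against 230, 221 and 195 in hypoxia without, at 0.33 and 0.31. Anln was higher in KO by 0.37 in normoxia, with overlap, and by 0.57 in hypoxia, without. Several of these calls rest on few libraries: the 9 in normoxia became 4 without KO normoxia glucose 2 or WT normoxia glucose 3 and 5 without KO normoxia glucose 1, and the 8 in hypoxia became 4 without KO hypoxia glucose 1 or 2 and 5 without WT hypoxia glucose 3.

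The genes lower in KO cells with glucose included Aurkb at -0.70 (SE 0.0907, adjusted p 8.25e-07) in normoxia, Pttg1 at -0.59 (SE 0.0931, adjusted p 1.19e-05), Nusap1 at -0.53 (SE 0.0787, adjusted p 5.17e-06) and Kif20a at -0.50 (SE 0.068, adjusted p 1.67e-06). Many of them sit on 1 chromosome. Chromosome 3 (Rnor_6.0) carries 9 of the 51 genes, Aurka, Bub1, Bub1b, Cdc25b, Ube2c, Kif18a, Spc25, Tpx2 and Nusap1, and 7 of them were among the 13 lower in normoxia and 8 among the 15 lower in hypoxia. The 1049 other tested genes on chromosome 3 had a median KO against WT change of -0.32 in normoxia with glucose, and 47.1% of them were lower. On chromosome 13, which carries Cenpf, Nuf2 and Kif14, the median of the other 472 genes was -0.37 and 48.7% were lower, whereas on chromosome 19, which carries Cenpn, the median of 499 was 0.23 and 40.7% were higher. With the median change of the 50 nearest genes taken out, 3 genes were higher and 7 lower in normoxia and 5 higher and 11 lower in hypoxia with glucose, and 50 and 46 were higher with fructose. Under that setting Spc25 stood at 0.06, Bub1 at 0.16, Bub1b at 0.05, Cenpf at 0.09 and Kif11 at -0.03 in normoxia with glucose. The part of chromosome position in the genotype differences was not tested further.

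On fructose, Ndc80 again led in KO cells, at 1.77 (SE 0.0917, adjusted p 8.08e-14) in normoxia and 1.45 (SE 0.0911, adjusted p 1.95e-12) in hypoxia, with 157, 166 and 155 CPM against 44.4, 54.2 and 41.1 and 128, 124 and 136 against 49.2, 49.6 and 42.6. Kif14 followed at 1.47 and 1.27. Genes that did not run with the majority in hypoxia were Cdc25b, lower by 1.01, and Cenpf, lower at -0.48 (SE 0.0975, adjusted p 0.000193) with 122, 112 and 130 CPM in KO against 172, 174 and 160 in WT, without overlap. With the change of its neighbours taken out, Cenpf stood at 0.01 there, with an adjusted p of 0.93. Cenpf was higher in KO in normoxia with fructose, at 0.24 (SE 0.0979, adjusted p 0.0456), a call lost when any of 10 libraries was left out, with an adjusted p of up to 0.158. The genes of KO hypoxia fructose with no call were Aurka, Aurkb, Bub1, Bub3, Ube2c, Kif18a and Foxm1, between -0.14 and 0.07 on the log2 scale.

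**Figure D5:**
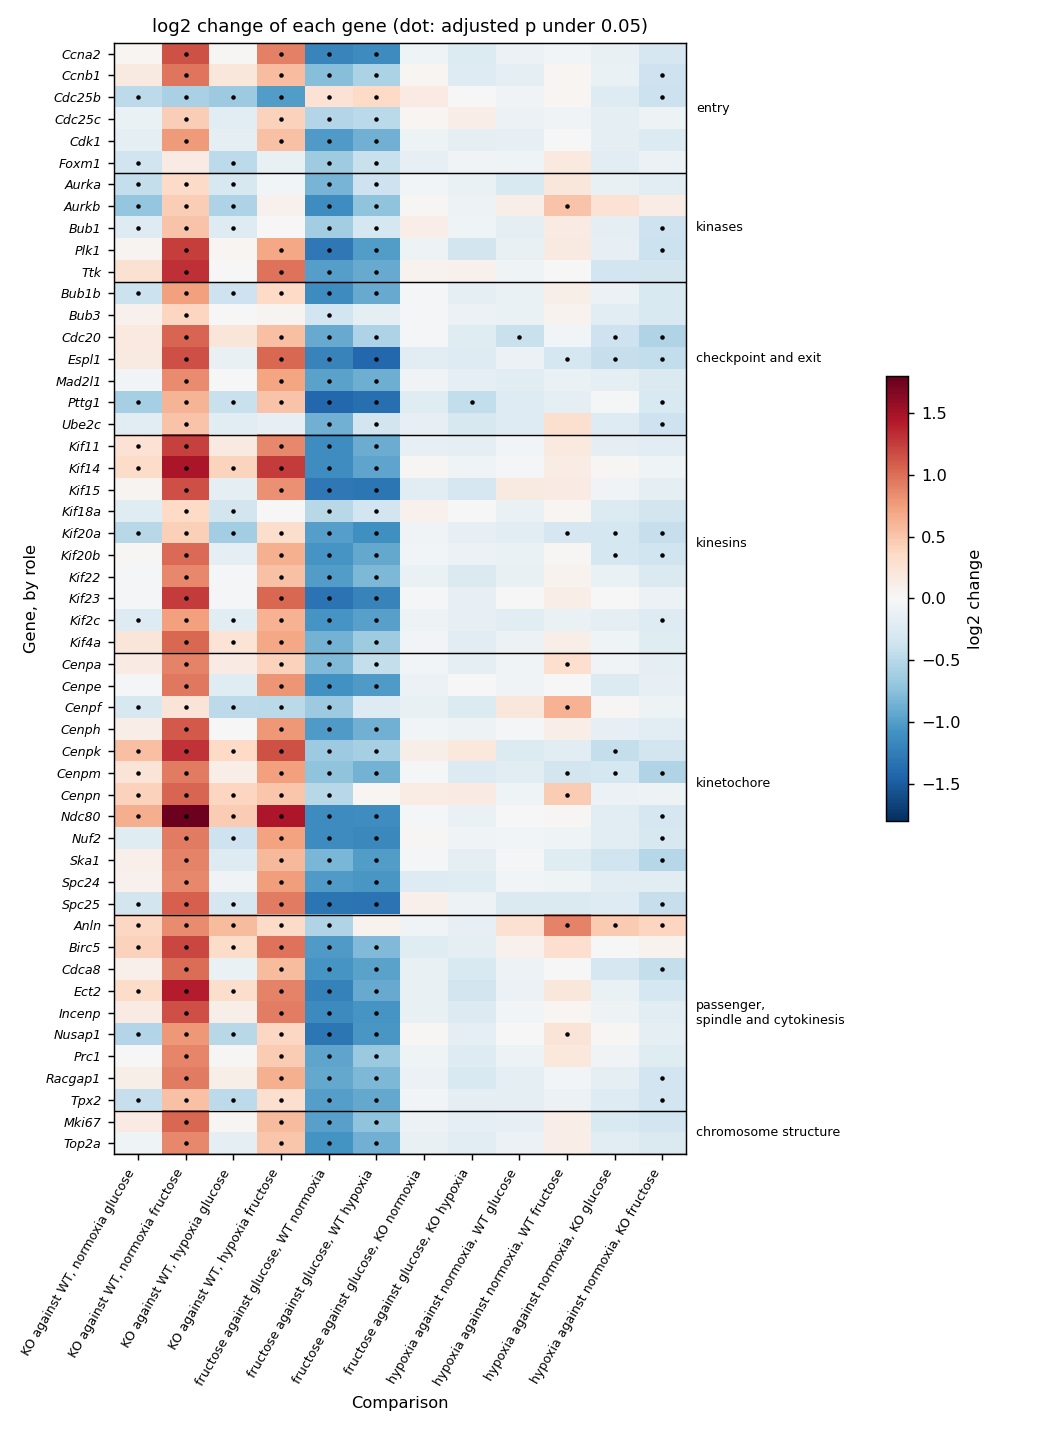
log2 change of each of the 51 mitotic genes (rows, by role) in the 12 comparisons of 2 groups (columns), with a dot where the adjusted p is under 0.05. The WT fructose columns are blue for all but a few genes (50 and 46 fell), the KO fructose columns are pale, and the KO against WT columns are red with fructose and mixed with glucose.

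The counts of genes changed by hypoxia in WT cells lay near or below the shares over all genes. In WT cells with glucose no gene rose and Cdc20 alone fell, at -0.41 (SE 0.102, adjusted p 0.0168), with a median of -0.11, where 3.39% of all genes rose and 1.43% fell. That call was lost without WT hypoxia glucose 3 or WT normoxia glucose 1 or 2, with an adjusted p of up to 0.129, while 3 genes fell without WT normoxia glucose 3 and 2 without WT hypoxia glucose 2 or WT normoxia fructose 3. In WT cells with fructose 6 genes rose and 3 fell, with a median of 0.03, where 11.3% of all genes rose and 9.91% fell. Those that rose were Anln at 0.89 (SE 0.123, adjusted p 9.8e-06), Cenpf at 0.62 (SE 0.0979, adjusted p 3.81e-05), Aurkb at 0.51 (SE 0.0919, adjusted p 0.000209), Cenpn at 0.46 (SE 0.117, adjusted p 0.006), Cenpa at 0.30 (SE 0.102, adjusted p 0.0388) and Nusap1 at 0.24 (SE 0.0808, adjusted p 0.0367). Those that fell were separase (Espl1), from 69.4, 75.6 and 63.5 to 59.2, 55.2 and 52.6 CPM, the central spindle motor Kif20a, from 180, 188 and 170 to 145, 139 and 150, and Cenpm, from 27.9, 31.7 and 31.1 to 24.5, 25 and 22.7. Their changes were -0.32 (SE 0.105, adjusted p 0.0303), -0.31 (SE 0.0686, adjusted p 0.0018) and -0.33 (SE 0.0873, adjusted p 0.0079), and none of these groups overlapped. The calls of Cenpa, Nusap1 and Espl1 were lost without any of 4, 3 and 4 of the WT fructose libraries, with adjusted p of up to 0.184, 0.199 and 0.141.

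In KO cells the genes changed by hypoxia mostly fell. With glucose 1 rose and 6 fell, with a median of -0.17, where 7.96% of all genes rose and 6.07% fell; with fructose 1 rose and 19 fell, with a median of -0.27, where 9.71% rose and 10.3% fell. The counts that fell were 16 and 32 without the libraries numbered 3, and without single libraries they ranged from 2 to 10 and from 12 to 28: the first was 2 without KO hypoxia glucose 1 or KO normoxia glucose 1 or 2 and 10 without KO normoxia glucose 3, and the second was 12 without KO normoxia fructose 2. The 6 that fell with glucose were Cdc20 at -0.37, Espl1 at -0.42, Kif20a at -0.32, Kif20b at -0.31, Cenpk at -0.42 and Cenpm at -0.31. The Kif20b call was lost when any of 18 of the 24 libraries was left out, with an adjusted p of up to 0.201, and the Cenpk call when any of 9 was, with up to 0.156. Those of Cdc20, Cenpm and Espl1 were lost without any of 4, 2 and 1. With fructose the largest falls were Cdc20 at -0.55 (SE 0.102, adjusted p 0.000382), Cenpm at -0.54 (SE 0.084, adjusted p 4.6e-05) and Ska1 at -0.51 (SE 0.128, adjusted p 0.0061). Anln was the gene that rose, at 0.47 (SE 0.122, adjusted p 0.0102) with glucose and 0.39 (SE 0.122, adjusted p 0.0271) with fructose, in neither case with overlap. The first call was lost without KO normoxia glucose 3 and the second without number 1 or 3 of either KO fructose group. Anillin transcripts thus rose with hypoxia in 3 of the 4 settings, and in WT cells with glucose its change was 0.27 (SE 0.122, adjusted p 0.239).

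The response to hypoxia was also compared between genotypes, as the hypoxia change in KO minus that in WT. With glucose no gene passed in either direction (edgeR, and also DESeq2; 1 had an unadjusted p under 0.05), where 0.169% of all genes were positive and 0.0135% negative. With fructose 4 were negative and none positive, with a median of -0.33, where 1.04% of all genes were positive and 1.07% negative. The 4 were Cenpf at -0.71 (SE 0.138, adjusted p 0.0072), Ube2c at -0.66 (SE 0.157, adjusted p 0.024), Bub1 at -0.51 (SE 0.13, adjusted p 0.0375) and Cdc25b at -0.42 (SE 0.112, adjusted p 0.0498). The Cdc25b call was lost when any of 19 of the 24 libraries was left out, with an adjusted p of up to 0.146. Those of Bub1 and Ube2c were lost when any of 10 and 7 was, with up to 0.115 and 0.0746. The count was 8 without the libraries numbered 3 and between 1 and 11 without single libraries, and 11 of the fructose libraries moved it by over 1.5 times: it was 11 without WT normoxia fructose 2 and 1 or 2 without any of the other 10. KO hypoxia fructose 3 was the fructose library that did not. All 51 values were negative and 28 had an unadjusted p under 0.05 (edgeR), but 47 did not pass. In WT cells the sugar by oxygen term passed the threshold for Aurka alone, as above. Of its 51 values 43 were positive, with a median of 0.15, and 11 had an unadjusted p under 0.05 (edgeR). In KO cells no gene passed that term (edgeR, and also DESeq2), where 0.0% of all genes were positive and 0.00677% negative. None had an unadjusted p under 0.05 (edgeR) there.

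Other cell cycle lists were read beside these genes, against the shares of all genes that changed with fructose. Over all genes 17.9% fell and 19.9% rose in WT normoxia, and 20.9% and 24.6% in WT hypoxia. In KO cells the shares were 0.65% and 1.14% in normoxia and 2.73% and 2.69% in hypoxia. Of 49 other mitosis genes, 45 fell and none rose with fructose in WT normoxia and 41 fell and 1 rose in WT hypoxia, with medians of -0.77 and -0.68. The list was led by Fbxo5, an inhibitor of the anaphase-promoting complex, at -1.51 (SE 0.0934, adjusted p 1.08e-11) and the kinase Pbk at -1.43 (SE 0.0943, adjusted p 2.95e-11) in normoxia, and Pbk at -1.81 (SE 0.0972, adjusted p 3.43e-13) and Cdca3 at -1.60 (SE 0.0967, adjusted p 2.88e-12) in hypoxia. In KO cells none changed in normoxia, and 1 rose and 2 fell in hypoxia, near the share over all genes. Of 37 DNA replication genes, all 37 fell in WT cells in both oxygen conditions, with medians of -1.14 and -1.19. Cyclin E1 (Ccne1) was at -1.72 (SE 0.219, adjusted p 1.16e-06) and -2.73 (SE 0.235, adjusted p 1.7e-09), and thymidine kinase (Tk1) at -1.65 (SE 0.184, adjusted p 6.99e-07) and -2.27 (SE 0.189, adjusted p 8.99e-09). In KO cells 0 of the 37 changed in normoxia and 5 fell in hypoxia. The genotype by sugar difference was positive for 39 and 35 of the 49 mitosis genes and for 35 and 29 of the 37 replication genes in normoxia and hypoxia, and negative for none, where 9.15% and 10.7% of all genes were positive.

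Subunits of the anaphase-promoting complex, the ubiquitin ligase of mitotic exit, had smaller median changes. Of 15, 9 fell and none rose with fructose in WT normoxia and 9 fell and 1 rose in WT hypoxia, with medians of -0.27 and -0.27, led in both by Cdc26 at -0.74 (SE 0.0972, adjusted p 1.44e-06) and -0.73 (SE 0.0978, adjusted p 1.15e-06). The last list held CDK inhibitors, pocket proteins and MuvB subunits, of which 15 of 18 were tested. In WT normoxia 7 fell and none rose, and in WT hypoxia 6 fell and 3 rose, led by the pocket protein Rbl1 at -0.94 (SE 0.109, adjusted p 2.11e-07) and -1.16 (SE 0.111, adjusted p 5.22e-09) and the E2F partner Tfdp2 at -0.97 (SE 0.115, adjusted p 2.87e-07) and -1.07 (SE 0.116, adjusted p 4.47e-08). Cdkn1a, the inhibitor p21, was at -0.62 (SE 0.124, adjusted p 0.000304) with fructose in WT normoxia and 0.19 (SE 0.123, adjusted p 0.211) in WT hypoxia, and at -0.12 (SE 0.122, adjusted p 0.793) and -0.28 (SE 0.122, adjusted p 0.203) in KO cells. Its sugar by oxygen difference in WT cells was 0.81 (SE 0.175, adjusted p 0.00964), and its genotype by sugar difference was 0.50 (SE 0.174, adjusted p 0.046) in normoxia and -0.48 (SE 0.174, adjusted p 0.0448) in hypoxia, with opposite signs. These lists were chosen with earlier results of these data known, and their counts are a description.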

How the data were processed

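RNA was sequenced from 24 libraries, 3 in each of 8 groups. The authors deposited raw read counts per gene; per the submitters' processing notes HISAT2, the Rnor_6.0 assembly and DESeq2 were used, with versions, the counter and its strand setting not given in the sources used here. Reads were counted without molecular identifiers, so standard errors rest on the spread between libraries, and totals of 14344010 to 23028807 counts set the precision. Of 34523 genes, 14770 passed a filter (edgeR filterByExpr, minimum count 10, minimum total 15), and 5 empty lines were left out.

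Counts were fitted over all 8 groups with the robust quasi-likelihood test of edgeR 4.0.16 (R 4.3.3) and TMM scaling, with 16 residual degrees of freedom, a common biological coefficient of variation of 0.146 and Benjamini-Hochberg adjustment over all genes tested at 0.05. The 12 comparisons of 2 groups and 6 differences between them came from this fit. The code was also run on simulated counts, with genes changed in a single group and the same spread for every gene. That setting is simpler than these data, so the run is no check of the calls given here. CPM is the count per 1000000 of the TMM-scaled total. Alternatives were DESeq2 1.42.0, other size factors, the library total alone, TMM without cell cycle genes, no filter on low counts, only the groups compared, the replicate number as a block, each library left out, the change of the 50 nearest genes taken out, and, chosen after seeing the data, samples 1 and 2 only. Figures were drawn with matplotlib 3.10.9.

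The members and lists were chosen with earlier results of these data known. All found members are given; values in every sample are given for the member of highest mean CPM in each role group, the 3 most positive and 3 most negative genotype by sugar differences in normoxia, Mki67, Top2a, Foxm1, Cdk1 and Ccnb1, and, for the groups compared, members called against the majority. The other lists give the 2 called members of largest change, and Cdkn1a. Values in every sample of Pttg1 and Aurka were added after their values were seen. Symbols without a single row (5 of 172 in the lists, and Ccnb2) are not analysed here.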

Additional observations from a re-analysis of the deposited data

Results flagged for a closer look

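Tests of the difference between 2 responses singled out the following results. The fructose response differed between KO and WT, on the positive side, for 48 of the 51 mitotic genes in normoxia and 38 in hypoxia, and on the negative side for 1 in hypoxia. The kinetochore gene Spc25 was at 1.41 in normoxia and 1.23 in hypoxia (log2), the spindle gene Nusap1 at 1.31 and 0.87, and the kinesin Kif23 at 1.28 and 1.06. The negative gene in hypoxia was the phosphatase gene Cdc25b, at -0.36. The hypoxia response with fructose differed between the genotypes for 4 genes, lower in KO: Cenpf at -0.71, Ube2c at -0.66, Bub1 at -0.51 and Cdc25b at -0.42. The difference in fructose response of WT cells between the oxygen conditions passed the threshold for 1 gene, Aurka, at 0.47. Of the 51 values of that difference, 43 were positive. The hypoxia response calls of Ube2c, Bub1 and Cdc25b were lost when any of 7, 10 and 19 libraries was left out. That of Aurka was lost when any of 7 was.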

How the results depend on the processing

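The large counts were steady. Without any 1 library, 50 to 50 genes fell with fructose in WT normoxia and 44 to 47 in WT hypoxia, 47 to 50 and 41 to 42 were higher in KO with fructose, and 46 to 50 and 37 to 40 had a positive genotype by sugar difference in normoxia and hypoxia. Small counts were not. Without any 1 library, with glucose 4 to 11 genes stood higher in KO in normoxia and 4 to 8 in hypoxia, 0 to 1 rose with fructose in WT normoxia, 1 to 2 fell with fructose in KO hypoxia, and 0 to 1 had a negative genotype by sugar difference in hypoxia. With hypoxia, 0 to 3 fell in WT glucose, 0 to 2 rose and 2 to 10 fell in KO glucose, and 0 to 1 rose and 12 to 28 fell in KO fructose; 1 to 11 had a negative genotype by oxygen difference with fructose and 0 to 5 a positive sugar by oxygen difference in WT, 5 without WT normoxia fructose 2 and 4 without WT normoxia glucose 3.

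With DESeq2, 2 genes fell with fructose in KO hypoxia and 2 with hypoxia in WT glucose, 2 rose with hypoxia in KO glucose, and 3 had a positive sugar by oxygen difference in WT. With the library total alone, which moved the median of all genes by 0.118 for KO against WT in hypoxia with fructose, -0.185 for fructose in WT hypoxia, -0.104 for hypoxia in WT fructose, 0.185 for genotype by sugar in hypoxia and -0.114 for sugar by oxygen in WT, 4 genes were higher in KO in hypoxia with glucose and 0 rose with fructose in WT normoxia or hypoxia. There 2, 7, 14 and 36 fell with hypoxia in WT glucose, WT fructose, KO glucose and KO fructose, 0 had a negative genotype by sugar difference in hypoxia, 2 a negative genotype by oxygen difference with fructose and 0 a positive sugar by oxygen difference in WT. With only the groups compared, 5 were higher in KO in normoxia with glucose, 0 rose with fructose in WT normoxia, 3 fell with fructose in KO hypoxia, 0 fell with hypoxia in WT glucose, 2 rose and 11 fell with hypoxia in KO glucose, 2 had a negative genotype by oxygen difference with fructose and 0 a positive sugar by oxygen difference in WT. With samples 1 and 2 only, chosen after seeing the data, 11 fell with fructose in KO hypoxia, 3 fell with hypoxia in WT glucose, 2 rose and 16 fell in KO glucose and 32 fell in KO fructose; 2 had a negative genotype by sugar difference in hypoxia, 8 a negative genotype by oxygen difference with fructose and 3 a positive sugar by oxygen difference in WT. The cause was not tested.

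Deviations from the group mean were compared between samples of different groups. For the same number their correlations were -0.0379 to 0.115 (number 1), -0.0505 to 0.177 (number 2) and 0.0289 to 0.27 (number 3). The medians were 0.0473, 0.0566 and 0.138, against 0.0165 between numbers 1 and 2, -0.0491 between 1 and 3 and -0.0746 between 2 and 3. Of 24 libraries, 22 correlated best with their own number. The main fit does not use the numbers, and what same-numbered samples share was not tested. With the replicate block, 14 genes stood higher in KO in normoxia with glucose, 15 fell with fructose in KO hypoxia, and with hypoxia 1 rose and 5 fell in WT glucose, 10 rose in WT fructose, 2 rose and 14 fell in KO glucose and 35 fell in KO fructose; 20 had a negative genotype by oxygen difference with fructose and 7 a positive sugar by oxygen difference in WT.

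With the change of the nearest genes taken out, 3 genes were higher and 7 lower in KO in normoxia with glucose, 5 higher in hypoxia with glucose, and 0 and 1 lower with fructose in normoxia and hypoxia. In normoxia with glucose Kif11 turned to -0.035, Bub1 to 0.16, Kif20b to -0.28, Cenpf to 0.092, Bub1b to 0.048 and Spc25 to 0.062. In hypoxia with glucose Bub1 turned to 0.19, Bub1b to 0.11, Aurka to 0.064 and Spc25 to 0.014, and with fructose Cenpf to 0.012 and Aurka to 0.41. Of 367 called values, 0 were lost with DESeq2, the replicate block or TMM without cell cycle genes, 3 with RLE size factors, 12 with the library total alone, 12 with no filter, 17 with only the groups compared and 13 with samples 1 and 2 only. Leaving out each library in turn lost 247 of 8808. With the change of the nearest genes taken out, 20 of 139 called KO against WT values were lost and 10 turned.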
